A study of Mus musculus with 5 samples.

Results

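Cycling mononuclear phagocytes of the mouse kidney were collected from 4 droplet single-cell libraries by a rule on raw unique molecular identifiers (UMIs), the counts of distinct captured transcripts. Cells had at least 200 detected genes and at most 50% mitochondrial UMIs. A member carried at least 5 UMIs of Tyrobp plus Fcer1g, which encode signalling adaptors of myeloid and natural killer cells, and at least 3 UMIs summed over Top2a, Mki67 and Birc5. Members were thus chosen by these measured transcripts. It carried no UMI of Cd3e, Cd209a or Xcr1, markers of T cells and of conventional dendritic cells, and fewer than 5 UMIs over Cxcl9, Cxcl10, Ifit1, Ifit3 and Rsad2. The rule gave 177 members among 13823 kept cells. The same rule without its Top2a, Mki67 and Birc5 clause gave 3058 eligible phagocytes, of which 2419 had no UMI of these 3 genes and served as the non-cycling phagocytes.

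The study followed kidney myeloid cells in C57/BL6 mice, labelled 8 weeks old, through unilateral ureteric obstruction (UUO), a surgical block of urine flow from a single kidney, and through its reversal. The 4 groups were sham surgery (day 0), obstruction for 2 days, obstruction for 7 days, and a kidney sampled 7 days after the obstruction was reversed, on experimental day 14. Kidneys were digested on ice, live cells were sorted, and each group was 1 library made from 3 pooled mice. No group therefore has replicates, no difference between groups carries a test, and the intervals below are exact 95% intervals that cover counting error only.

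A macrophage that divides copies its DNA in S phase, grows and checks the copy in G2, and aligns and separates its chromosomes in mitosis. Top2a untangles the copied chromosomes, Mki67 coats them in mitosis, and Birc5 (survivin) is part of the complex that checks their attachment, so their transcripts mark cells from late S phase to mitosis. Kidney macrophages are known to be replenished both from circulating monocytes and by division in place. Ly6c2, Plac8 and Chil3 are typical of newly arrived monocytes, and the complement C1q chains of mature macrophages.

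The upstream sequences of the 3 genes that define the members are shown because the transcripts of both main phases of the cycle in these cells are described below, and the shared upstream motifs differ between the phases. Each is the 250 bases before the annotated start on RefSeq's GRCm38.p6, on the gene's own strand, with none of the transcript. Top2a lies on the minus strand at chr11:99024190-99024439, Mki67 on the minus strand at chr7:135716380-135716629 and Birc5 on the plus strand at chr11:117848987-117849236. Mcm6, a subunit of the replicative helicase, lies on the minus strand at chr1:128359706-128359955 and stands for the S phase genes, as the one of highest day 2 level with an E2F match in this stretch. Capitals mark every match, on either strand, to the CCAAT box (CCAAT), to the core of the cell cycle homology region (TTTGAA) and to 4 E2F sites (TTTGGCGC, TTTCCCGC, TTTGCCGC and TTTCGCGC).
Top2a: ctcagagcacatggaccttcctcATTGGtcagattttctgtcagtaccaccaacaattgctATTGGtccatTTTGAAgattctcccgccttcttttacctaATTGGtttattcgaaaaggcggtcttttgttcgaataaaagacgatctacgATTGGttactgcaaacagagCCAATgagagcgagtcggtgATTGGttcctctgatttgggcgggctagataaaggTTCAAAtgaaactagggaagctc
Mki67: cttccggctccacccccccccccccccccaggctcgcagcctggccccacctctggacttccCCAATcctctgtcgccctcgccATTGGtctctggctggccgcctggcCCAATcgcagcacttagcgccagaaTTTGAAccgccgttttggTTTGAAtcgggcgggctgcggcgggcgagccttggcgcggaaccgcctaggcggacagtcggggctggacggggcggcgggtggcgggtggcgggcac
Birc5: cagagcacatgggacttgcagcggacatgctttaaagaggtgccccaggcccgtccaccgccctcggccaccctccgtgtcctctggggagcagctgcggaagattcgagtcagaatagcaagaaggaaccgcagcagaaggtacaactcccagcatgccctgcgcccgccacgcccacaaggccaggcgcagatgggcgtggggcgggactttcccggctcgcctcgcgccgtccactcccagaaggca
Mcm6: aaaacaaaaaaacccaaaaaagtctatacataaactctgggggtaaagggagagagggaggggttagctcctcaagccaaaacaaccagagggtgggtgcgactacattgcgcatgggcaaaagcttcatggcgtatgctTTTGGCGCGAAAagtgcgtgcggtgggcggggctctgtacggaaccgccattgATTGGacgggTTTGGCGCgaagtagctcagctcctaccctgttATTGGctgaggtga
The Top2a stretch held 6 CCAAT and 2 TTTGAA matches, that of Mki67 held 3 and 2, and that of Birc5 held none of the motifs searched. The Mcm6 stretch held 2 CCAAT matches, no TTTGAA and 3 E2F matches, of which 2 overlap by 4 bases on opposite strands.

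Across the lists the share of windows with a motif differed by phase. In windows of 300 bases, 250 before the start and 50 after it, CCAAT was found in 31 of 36 matched G2/M genes (86.1%), in 15 of 28 matched S phase genes (53.6%) and in 37.4% of 32851 windows of all genes. TTTGAA was found in 26 of 36 G2/M windows (72.2%), in 3 of 28 S phase windows (10.7%) and in 17.9% of all windows. An E2F site was found in 1 of 36 G2/M windows (2.78%), in 10 of 28 S phase windows (35.7%) and in 2.26% of all windows. A match describes the letters present and says nothing of what binds there.

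Members made up more of the phagocytes 2 days into the obstruction than later. The sham library gave 0 members of 49 eligible cells, which allows a share of up to 6.12%, 3 counts being taken here and below as what a count of 0 allows. At 2 days of obstruction 69 of 499 eligible phagocytes were members, a share of 13.8% with an interval of 10.9 to 17.2. The day 7 library gave 90 members in 2008 eligible cells, or 4.48% (3.62 to 5.48). The reversed kidneys gave 18 in 502, or 3.59% (2.14 to 5.61). The day 2 interval lay above both others, and the day 7 and reversed intervals overlapped. With cells carrying 3 or more UMIs of other types' markers left out, few cells remained, and members were 2 of 31 on day 2 (6.45%), 13 of 393 on day 7 (3.31%) and 0 of 10 after reversal.

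Members were deeper cells than the phagocytes they came from. Their median UMI count was 17295 on day 2, 9339.5 on day 7 and 10756.5 after reversal, against 8576, 5731 and 5988 in non-cycling phagocytes and 2671.5 in the sham library. Every eligible cell with enough UMIs was therefore thinned to 2000 UMIs and counted where 1 or more UMIs of the 3 genes remained. In sham none of the 36 such cells kept a UMI, which allows 8.33%. The thinned share in day 2 phagocytes was 15.0% (75 of 499, interval 12.01 to 18.5). Day 7 phagocytes had 10.4% (208 of 2008, interval 9.06 to 11.8), and reversed ones 6.97% (35 of 502, interval 4.90 to 9.56). The same cells before thinning gave 2.78%, 26.9%, 20.9% and 16.9%. At 1 or more UMIs the day 7 share lay below the day 2 share both before and after thinning. Kept cells with under 5 UMIs of Tyrobp plus Fcer1g, thinned the same way, gave 0.693%, 4.78%, 5.42% and 3.33%, and 1.54%, 10.1%, 10.5% and 7.28% before thinning. The phagocytes of the 3 obstruction libraries lay above that level, with the smallest margins on day 7 and after reversal.

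**Figure D1:**
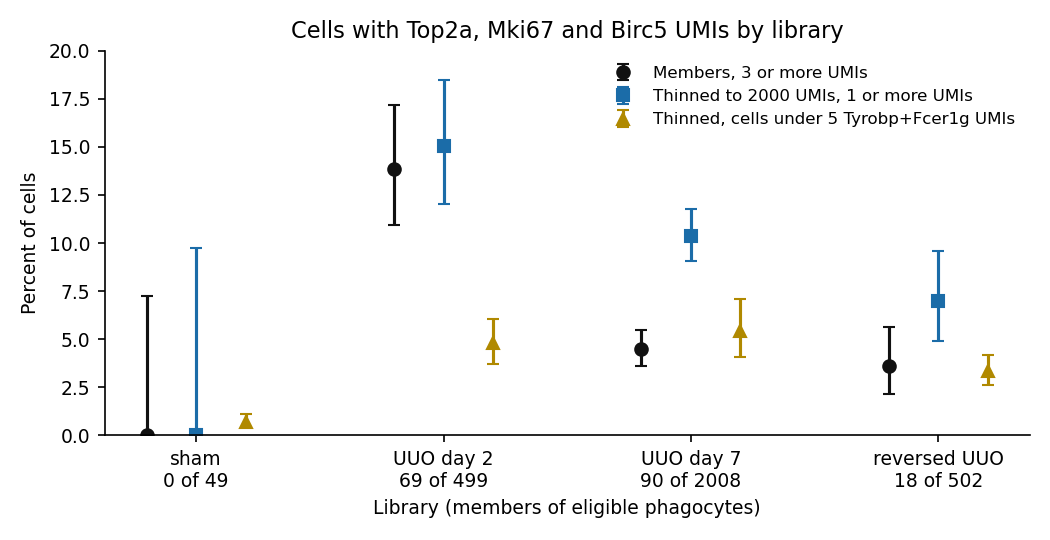
Percent of cells with transcripts of Top2a, Mki67 or Birc5 (y axis) in the 4 libraries (x axis), 1 library per group. Black circles are members among eligible phagocytes at 3 or more UMIs, blue squares eligible phagocytes with 1 or more UMIs after thinning to 2000 UMIs, and yellow triangles thinned cells under 5 Tyrobp plus Fcer1g UMIs; bars are exact 95% intervals. The black circle of day 2 stands at 13.8%, above 4.48% on day 7 and 3.59% after reversal.

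The 4 libraries held 18649637, 19689924, 30462683 and 22943957 UMIs for sham, day 2, day 7 and reversal. The filters kept 3933, 2207, 4447 and 3236 cells. Library pairs shared 16 to 39 cell barcodes, and no 2 members shared one. Members took 3.13% of the kept cells on day 2, 2.02% on day 7 and 0.556% after reversal. Median mitochondrial shares were 3.31%, 2.88% and 4.35% in members and 3.49%, 2.93% and 3.55% in non-cycling phagocytes.

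The label of mononuclear phagocyte held for most members but not for all. Scaled to depth, 155 of the 177 had at least 12 Tyrobp plus Fcer1g UMIs per 10000, namely 67 of 69 on day 2, 72 of 90 on day 7 and 16 of 18 after reversal. This limit was set after the data were seen, at a gap in the values. The highest member below it reached 1.96 per 10000 on day 2, 9.89 on day 7 and 11.3 after reversal, and the lowest member above it 14.6, 13.3 and 13.1. Csf1r, the receptor of the main macrophage growth factor, was detected in 65 of 67, 65 of 72 and 16 of 16 members above the limit. In the 2 members below it on day 2 and the 2 after reversal, Csf1r, Cd68 and Adgre1 were all at 0. On day 7 Csf1r had a UMI in 5 of the 18 members below the limit, at 18.5 CPM over the group, CPM being the gene's UMIs summed over a group of cells and scaled to a total of 1000000. The limit is set on Tyrobp and Fcer1g, which are also in the phagocyte marker list, so the list is given without them. Its other 6 measured genes summed to 7747, 13997 and 20365 CPM in members above the limit and to 261, 1126 and 902 CPM below it.

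The 22 members below the limit carried transcripts of other cell types. With references of those cells added, the 2 of day 2 were nearest tubule cells. Of the 18 on day 7, 6 were nearest tubule, 5 fibroblast or mural cells, 4 endothelium, 2 T cells and 1 natural killer (NK) cells, and both cells after reversal were nearest tubule. The fibroblast and mural list of 6 genes summed to 2662 CPM over all day 7 members, 8854 CPM below the limit, 100.8 CPM above it and 981.9 CPM in non-cycling phagocytes. The tubule list of 9 genes summed to 832 CPM above the limit and 8575 CPM below it on day 2, to 548 and 2011 CPM on day 7 and to 3447 and 10142 CPM after reversal. On day 7 both lists were uneven over the members below the limit, with single cells of up to 12567 CPM for tubule and 32625 CPM for fibroblast. Their median cell had 507 CPM of the tubule list, against 585 CPM above the limit. For the fibroblast and mural list the medians were 152 and 72.9 CPM. In non-cycling phagocytes, those below the limit included, the tubule list summed to 1867, 3173 and 3565 CPM in the 3 libraries. The reversed members above the limit thus carried about as much as the non-cycling phagocytes of that library. Day 2 and day 7 members above the limit carried less than theirs. The part of tubule transcripts in the ratios of members to non-cycling phagocytes was not tested. Below the limit lay 6.03%, 16.0% and 9.59% of the non-cycling phagocytes of the 3 libraries. Results that turn on these 22 cells are given with and without them. On that footing the shares of members were 14.3% (67 of 467), 4.28% (72 of 1681) and 3.52% (16 of 454).

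Markers of NK cells and neutrophils summed to less in members than in non-cycling phagocytes, whose sums include single cells of up to 68862 CPM for the NK list and 422717 CPM for the neutrophil list on day 2. The NK list of 9 genes summed to 50.8 CPM in day 2 members against 669 CPM in non-cycling phagocytes, to 230 against 411 CPM on day 7 and to 94.0 against 196 CPM after reversal. The neutrophil list of 7 genes, which includes S100a8 and S100a9, summed to 187 against 2600 CPM on day 2, 189 against 939 CPM on day 7 and 67.2 against 1200 CPM after reversal. The share of cells with 3 or more UMIs of a list, which rises with depth, was lower in members for the NK list on day 2 and higher in the other 5 cases. It was 58.0% against 36.4%, 31.1% against 23.6% and 22.2% against 8.63% for the neutrophil list, and 5.80% against 12.6%, 10% against 7.93% and 11.1% against 6.47% for the NK list. The conventional dendritic list of 12 genes summed to 373 against 485, 449 against 588 and 322 against 440 CPM, with Xcr1 and Cd209a at 0 in members by the rule. The T cell list summed to 18.8 against 27.8 CPM on day 2, to 208 against 132 CPM on day 7, where members above the limit had 148 CPM, and to 98.5 against 135 CPM after reversal. The plasmacytoid dendritic list summed to 208 against 242, 470 against 543 and 461 against 411 CPM. Their part in the results was not tested. Marked doublets, cells that a caller scored as likely pairs, were 5, 3 and 1 of the members, or 7.25%, 3.33% and 5.56%, against 3.01%, 3.02% and 3.36% of the non-cycling phagocytes.

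The exclusions removed many cycling cells at day 7 and after reversal. Of 99 cells that met the Tyrobp plus Fcer1g and the cycling clauses on day 2, 30 failed another clause. On day 7 this was 110 of 200, with 57 carrying Cd209a, 26 carrying Xcr1, 26 past the interferon limit and 17 carrying Cd3e. After reversal it was 19 of 37. Of all phagocytes, cycling or not, 499 of 650 on day 2, 2008 of 3146 on day 7 and 502 of 731 after reversal passed the exclusions. Without the exclusions, 15.2%, 6.36% and 5.06% of phagocytes met the cycling clause. At the edge of the cycling clause, 2, 11 and 3 members had exactly 3 UMIs, and 9, 50 and 10 eligible cells just outside had exactly 2. Their summed S phase and G2/M levels were 14011, 5726 and 2971 CPM inside and 6816, 3787 and 3772 CPM outside, against 16589, 14834 and 10724 CPM over all members.

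The genes that chose the members are a description and carry no test. Top2a stood at 411 CPM on day 2, in 62 of 69 members, at 629 CPM on day 7 in 75 of 90, and at 448 CPM after reversal in 13 of 18. Mki67 stood at 249.8, 347 and 425 CPM, in 64, 74 and 16 members. Birc5 stood at 401, 422 and 278 CPM, in 65, 74 and 14 members. No single gene of the 3 was detected in every member of a library.

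Most members carried more transcripts of the G2/M list than of the S phase list, and the rule genes are themselves late cycle genes. The G2/M list of 42 genes, without the 3 rule genes, summed to 12484, 11947 and 8584 CPM in members and to 1835, 1476 and 1323 CPM in non-cycling phagocytes. The S phase list of 32 genes summed to 4105, 2887 and 2140 CPM in members against 591, 443 and 390 CPM. The ratio of the lists was 3.04 on day 2, 4.14 on day 7 and 4.01 after reversal in members, and 3.11, 3.33 and 3.39 in non-cycling phagocytes, so the day 2 members lay below the members of the other libraries and close to the non-cycling phagocytes of their own. More S phase than G2/M UMIs were found in 6 of 69, 5 of 90 and 1 of 18 members. In non-cycling phagocytes this held for 2.19%, 6.17% and 7.43% of cells, so the lists lean to G2/M in both groups. A narrower count set Ccnb1, Cdc20, Plk1, Cenpe, Cenpf and Aurka against Mcm3, Mcm5, Mcm6, Pcna, Tyms and Rrm2. The first, later set had more UMIs in 21 of 69, 42 of 90 and 5 of 18 members. Among single members the S phase level ran from 578 to 9583 CPM on day 2, 138 to 8523 CPM on day 7 and 195 to 7950 CPM after reversal. The G2/M level ran from 4920 to 23876, 1174 to 28554 and 689 to 17936 CPM. The lowest day 2 member for G2/M thus lay above the lowest of the other libraries, where the members are also shallower. Single non-cycling phagocytes reached 7051, 5051 and 4775 CPM of the S phase list. The cells without UMIs of the 3 rule genes thus included some with many S phase transcripts.

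**Figure D2:**
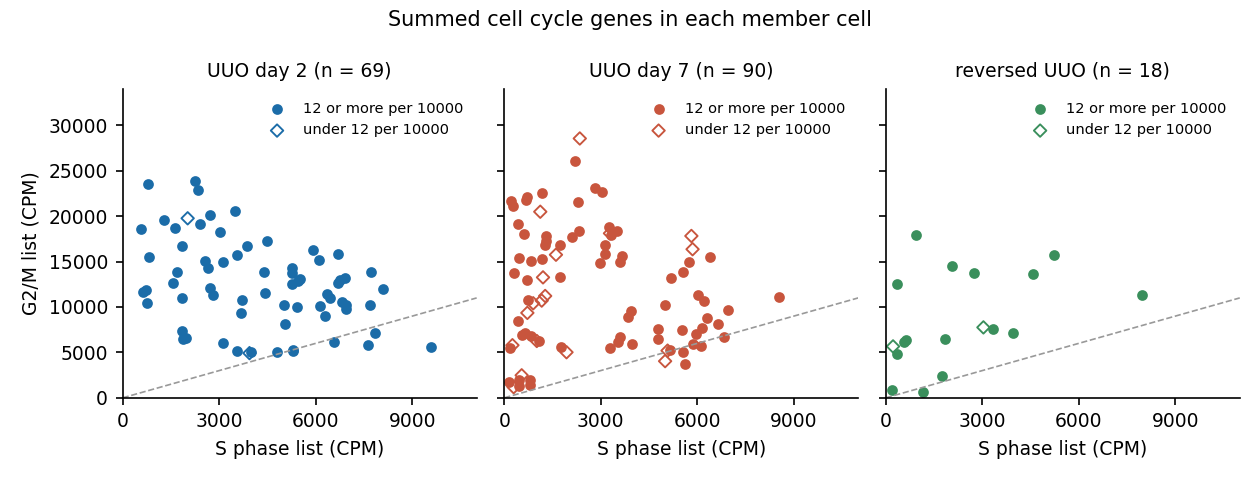
S phase list level (x axis) against G2/M list level (y axis), both in CPM, of each member in the 3 libraries with members; filled points are members at or above 12 Tyrobp plus Fcer1g UMIs per 10000, open diamonds those below, and the dashed line marks equal levels. Most cells lie above the line, and 6 of 69, 5 of 90 and 1 of 18 had more S phase than G2/M UMIs.

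Of the S phase genes with enough UMIs, 31 of 31 on day 2, 32 of 32 on day 7 and 18 of 20 after reversal were at least 2-fold higher in members, and of the G2/M genes 42 of 42, 42 of 42 and 20 of 20. The backgrounds over all genes tested were 7.85%, 6.33% and 7.37%, and the rule fixed these directions. Replication-linked histone genes were higher in 9 of 13, 15 of 22 and 5 of 10, and lower in 0, 2 and 1, beside 6.8%, 9.84% and 14% lower over all genes, which the last 2 of these lay near. Mcm6 stood at 165 CPM (143 to 190) in day 2 members, in 52 of 69 cells, against 30.3 CPM in non-cycling phagocytes. In day 7 members it stood at 87.5 CPM (69.5 to 109), in 38 of 90 cells, against 27.1 CPM. After reversal it stood at 85.1 CPM (51.2 to 133), in 10 of 18 cells, against 22.5 CPM, and 20.5 CPM was measured in the sham phagocytes. Ccna2, the cyclin of S phase and G2, was at 174 CPM in day 2 members and 0.625 CPM in non-cycling cells, a log2 ratio of 6.75 (5.73 to 7.36). The histone transcript Hist1h2ap was at 655 against 9.38 CPM on day 2 and at 821 against 11.03 CPM on day 7. Cenpf, a kinetochore protein, had a log2 ratio of 6.41 (5.92 to 6.87) on day 7, and Prc1, which bundles the spindle midzone, one of 6.28 (5.08 to 7.00) after reversal. These log2 ratios are of CPM with a pseudocount of 1, which understates the ratio of low genes.

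Which non-cycling phagocyte each member resembled was asked within its own library. Non-cycling phagocytes were gated on raw UMIs into 9 states, and each member took the state of highest multinomial likelihood over 7668, 8157 and 7411 genes. Gate genes, rule genes, cell cycle lists, histones, mitochondrial and ribosomal genes were left out, as was a state with under 20 reference cells in a library. Other genes high in members, such as Asf1b and Spc24, were not left out by name. Their day 2 log2 ratios were 4.41 and 4.26, and 3.42 and 3.24 against non-cycling cells weighted to the state mix of the members. In an alternative, all genes over 2-fold higher in members were left out of the calls. The shares of the most frequent state and of the combined states then stayed within their counting intervals in each library. The gates described here were NK-like, neutrophil-like, dendritic-like, Ace monocyte-like, Mmp12-positive, Ly6c2-high monocyte-like, C1q-high with Ccl8 or Stab1, and C1q-high without either. C1q-high means at least 10 UMIs over C1qa, C1qb and C1qc. Stab1 is a scavenger receptor and Ccl8 a chemokine, both found in resident-type macrophages. Mmp12 encodes a macrophage elastase, and Ace marks Ly6c2-low patrolling monocytes.

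By likelihood most day 2 members were nearest C1q-high macrophages, although monocyte-like cells were then the more frequent reference. Of 69 members, 44 were nearest the C1q-high state with Ccl8 or Stab1 (63.8%, 51.3 to 75.0) and 21 the C1q-high state without them (30.4%, 19.9 to 42.7). The 65 together made 94.2% (85.8 to 98.4), and 65 of 67 members above the limit (97.0%). The neutrophil-like reference was nearest for 2 more, those below the limit. No member was nearest the Ly6c2-high or the Ace monocyte-like reference, although these held 96 and 30 reference cells against 28 and 31 of the C1q-high states. Ccl8 was detected in 1 of 365 non-cycling cells on day 2 and Stab1 in 137, so Stab1 set that gate. The Mmp12-positive state had 18 reference cells on day 2 and was therefore left out, while 14 of the 69 members passed its gate. Of the others, 18 and 13 passed the C1q-high gates with and without Ccl8 or Stab1, 3 the Ly6c2-high and 2 the Ace monocyte-like gate, and 16 passed none. With references of dendritic, T, tubule, endothelial and fibroblast cells added together, 10 of the members were nearest Cd209a-positive dendritic cells, 2 tubule cells and 55 a C1q-high state (79.7%).

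The references of day 2 were not sharply apart. When each reference cell was left out and classified, 53.6% of the C1q-high cells with Ccl8 or Stab1 and 64.5% of those without came back to their own state. The figures were 50% for Ly6c2-high monocyte-like and 100% for NK-like cells. With references pooled over the 4 libraries at equal weight, 47.8% of day 2 members were nearest a C1q-high state and 56.5% a C1q-high or Mmp12-positive state. Day 2 members and reference states compared as sums gave a Pearson correlation across 7668 genes, on centred log2 values, of 0.49 with the Ccl8 or Stab1 state and 0.30 with the other C1q-high state. Genes are not independent replicates, and this value describes likeness without a test. On day 7 the nearest state by this measure turned with the limit: over all members the correlation across 8157 genes was 0.43 with the Ccl8 or Stab1 state and 0.14 with the Mmp12-positive state, and above the limit 0.36 and 0.47.

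By likelihood the day 7 members fell mainly to the C1q-high and the Mmp12-positive references. Of 90 members, 46 were nearest the C1q-high state with Ccl8 or Stab1 (51.1%, 40.3 to 61.8), 22 the Mmp12-positive state (24.4%, 16.0 to 34.6), 17 the Ly6c2-high monocyte-like state (18.9%, 11.4 to 28.5) and 5 the NK-like state. Above the limit the counts were 46, 22, 2 and 2 of 72, so that 15 of the 17 monocyte-like calls were members below it. With references of other cell types added, 2 of 90 stayed monocyte-like. C1q-high or Mmp12-positive calls made 75.6% of members (65.4 to 84.0) and 94.4% of those above the limit. No member was nearest the C1q-high state without Ccl8 and Stab1, but of that state's own 356 cells 8.71% came back to it, against 88.0% and 84.8% for the Ccl8 or Stab1 and the Mmp12-positive states. Of the Ly6c2-high and the Ace monocyte-like reference cells 36.0% and 56.7% came back, so the monocyte-like calls of day 7 are uncertain too. The 2 C1q-high states could not be told apart at day 7 by these genes. The gates themselves, applied to the members, put 4 of 90 in the Mmp12-positive state, 24 and 27 in the C1q-high states with and without Ccl8 or Stab1, and 31 in none. Mmp12 stood at 94.0 CPM in day 7 members against 136 CPM in non-cycling phagocytes (log2 -0.53), and of 8 Mmp12-state genes 0 were at least 2-fold higher and 2 lower (median -0.63), beside 9.84% lower and a median of -0.03 over all genes tested. Above the limit 4 were lower (median -0.82), beside 8.72% of all genes. When references were restricted to cells above the limit too, 22.2% of the 72 members were nearest the Ccl8 or Stab1 state, and 72.2% either C1q-high state.

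The 18 reversed members fell to 4 states with phagocyte references alone. Of these, 6 were nearest Mmp12-positive cells (33.3%, 13.3 to 59.0), 5 C1q-high cells without Ccl8 and Stab1 (27.8%, 9.69 to 53.5), 4 Ly6c2-high monocyte-like cells (22.2%, 6.41 to 47.6) and 3 C1q-high cells with Ccl8 or Stab1 (16.7%, 3.58 to 41.4). C1q-high or Mmp12-positive calls made 14 of 18 (77.8%, 52.4 to 93.6) and 14 of 16 above the limit. Of the reference cells of this library 73.9% of the Mmp12-positive, 41.6% of the C1q-high without Ccl8 and Stab1, 65% of the Ly6c2-high and 78.5% of the Ccl8 or Stab1 cells came back to their own state. The intervals of the 4 states overlapped one another, so no order among them can be read. Reversed members and states compared as sums gave a correlation across 7411 genes of 0.35 with the Ccl8 or Stab1 state. It was 0.28 with the Mmp12-positive state and 0.25 with the other C1q-high state. Above the limit the values were 0.36, 0.30 and 0.26. By this measure the Ccl8 or Stab1 state came first, unlike in the counts by likelihood. With references of other cell types added, none of the 18 was nearest the Ly6c2-high state, 3 were nearest tubule (1 of them above the limit), 1 each type 1 and type 2 dendritic cells, 5 Mmp12-positive cells, and 3 and 5 the C1q-high states with and without Ccl8 or Stab1.

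**Figure D3:**
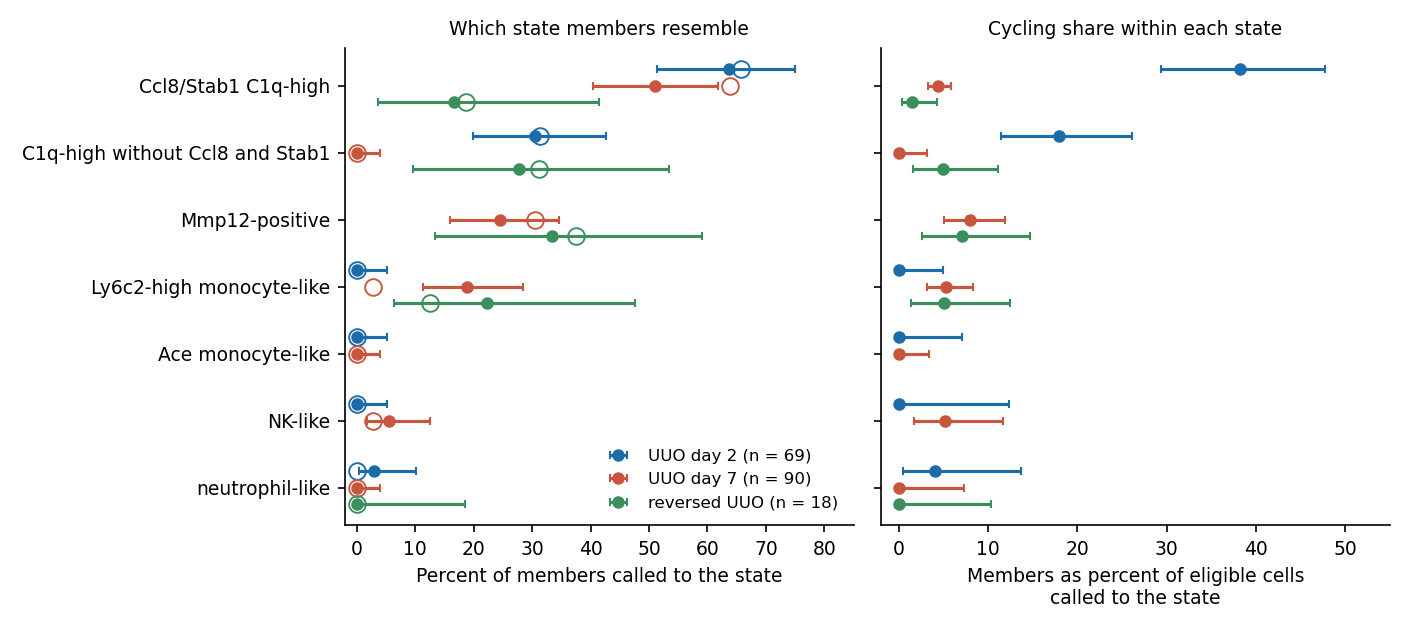
Left, percent of members (x axis) nearest each non-cycling reference state described (y axis) in the 3 libraries; filled points are all members with exact 95% intervals, and open circles members at or above 12 Tyrobp plus Fcer1g UMIs per 10000. Right, members as a percent of all eligible phagocytes called to that state, with the same intervals. On day 2 the Ccl8 or Stab1 C1q-high state takes 63.8% of members and 38.3% of the cells called to it are members.

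The share of cycling cells within a state was compared by calling every eligible phagocyte in the same way. On day 2, 44 of 115 cells called to the C1q-high state with Ccl8 or Stab1 were members (38.3%, 29.4 to 47.8), and 39.1% of them kept a UMI of the 3 genes after thinning. Of 117 called to the C1q-high state without them, 21 were members (17.9%, 11.5 to 26.1). Of 123 Ly6c2-high and Ace monocyte-like calls 0 were, which allows up to 2.44%, and 2 kept a UMI after thinning (1.63%, 0.198 to 5.75). The interval of the combined C1q-high calls (65 of 232, 28.0%, 22.3 to 34.3) lay above that limit.

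The states of day 7 have the names of those of day 2 but their own reference cells. Ccl8 was found in 529 of 1589 non-cycling cells on day 7 and in 1 of 365 on day 2, so the state with Ccl8 or Stab1 may hold other cells on the 2 days, and its shares are given per library. Members were 22 of 275 Mmp12-positive calls (8%, 5.08 to 11.9) and 46 of 1039 calls to the C1q-high state with Ccl8 or Stab1 (4.43%, 3.26 to 5.86). With 1 or more UMIs after thinning the shares were 10.5% (7.18 to 14.8) and 11.1% (9.22 to 13.1), and these intervals overlap. Of 117 calls to the C1q-high state without Ccl8 and Stab1 none was a member, which allows 2.56%, and 2 kept a UMI after thinning (1.71%, 0.208 to 6.04). Members were 17 of 324 Ly6c2-high monocyte-like calls (5.25%, 3.09 to 8.27), and 2 of 70 among cells above the limit (2.86%). Of 107 Ace monocyte-like calls 0 were members, which allows up to 2.80%, and both monocyte-like states together gave 17 of 431 (3.94%, 2.31 to 6.24). After thinning 23 of the 431 kept a UMI (5.34%, 3.41 to 7.90), against 10.2% (8.68 to 11.9) of the C1q-high and Mmp12-positive calls together. After reversal the shares were 6 of 85 Mmp12-positive calls (7.06%), 5 of 102 C1q-high calls without Ccl8 and Stab1 (4.90%) and 3 of 202 with them (1.49%, 0.307 to 4.28). With 1 or more UMIs after thinning they were 7.06% (2.63 to 14.7), 11.8% (6.23 to 19.6) and 6.93% (3.84 to 11.4), so no order of the states can be read. Members were 4 of 79 Ly6c2-high monocyte-like calls (5.06%, 1.40 to 12.5), and 2 of 36 above the limit (5.56%), but these calls do not hold with references of other cell types, where none of the 18 members was monocyte-like.

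Against the non-cycling phagocytes of day 2, members carried more C1q and less of the monocyte transcripts. Of 8627 genes with at least 30 summed UMIs, 7.85% were at least 2-fold higher in members and 6.8% at least 2-fold lower. The cells were chosen in this contrast, so the shares describe them and nothing more. Among cells above the limit they were 8.09% and 6.45%. Of 12 mature macrophage genes 6 were at least 2-fold higher and 2 lower (median log2 0.55), beside a median of 0.05 over all genes tested. Against non-cycling cells weighted to the state mix of the members that list had a median of -0.45. Of 14 monocyte genes 0 were higher and 11 lower (median -3.02). A fold here, as in bulk sums, cannot tell a smaller share of monocyte-like cells from less of the transcript per cell.

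C1qb, a chain of the complement component that tags dying cells, stood at 3339 CPM (3238 to 3443) in day 2 members, in 65 of 69 cells, and at 1505 CPM (1463 to 1549) in non-cycling phagocytes, in 225 of 365. The day 7 values were 3173 and 3057 CPM, the reversed ones 2866 and 2898 CPM, and sham phagocytes had 3461 CPM. Members of the 3 libraries were thus close to one another in C1qb, and the day 2 non-cycling cells lay apart, at a log2 ratio of 1.15 (1.09 to 1.21). Weighted to the state mix of the members, the day 2 non-cycling cells gave a log2 ratio of -0.22, with -0.35 for C1qa and -0.17 for C1qc. Of the other mature macrophage genes, Cd81, a tetraspanin, was at 672 against 267 CPM on day 2, the fractalkine receptor Cx3cr1 at 531 against 214 CPM, and the mannose receptor Mrc1 at 146 against 58.2 CPM.

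Apoe, the lipid carrier of mature macrophages, went the other way. It stood at 1541 CPM (1472 to 1612) in day 2 members against 4290 CPM (4219 to 4363), at a log2 ratio of -1.48 (-1.55 to -1.41). Weighted to the state mix the ratio was -1.79, on the same side. On day 7 the values were 8318 against 12512 CPM (log2 -0.59), and after reversal 8902 against 14919 CPM (log2 -0.74). Apoe was lower in members in each of the 3 libraries.

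Monocyte genes were lower in the members of day 2. Plac8 stood at 59.8 CPM in members and 1243 CPM in non-cycling phagocytes, a log2 ratio of -4.36 (-4.70 to -4.03). Chil3, a chitinase-like lectin, stood at 113 against 1066 CPM (log2 -3.23, -3.48 to -2.98) and was found in 23 of 69 members. Ly6c2 stood at 13.9 against 172 CPM, and Hp, haptoglobin, at 13.1 against 270 CPM. Lyz2, lysozyme M, stood at 4078 against 12819 CPM (log2 -1.65). Ccr2, the receptor by which monocytes leave the marrow, was closer, at 440 against 707 CPM and in 57 of 69 members. Weighted to the state mix the monocyte list kept a median of -1.75, with Plac8 at -2.34 and Chil3 at -2.88.

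Other groups of day 2 differed less or in part. Spp1, osteopontin, stood at 4058 against 10033 CPM (log2 -1.31), but at 0.18 once non-cycling cells were weighted to the state mix. Of its 4956 UMIs in members, 1460 lay in 1 cell below the limit. Without that cell members stood at 2962 CPM (log2 -1.76), and the weighted ratio without it was not computed. MHC class II genes had 0 of 7 past 2-fold either way (median 0.01), and Cd74, the invariant chain, stood at 10917 against 10445 CPM. Of 12 glycolysis and 12 respiratory chain genes none passed 2-fold. Of 7 interferon genes 1 was higher and 3 lower, of 12 lysosome genes 0 and 1, and of 11 inflammatory genes 0 and 2, beside 7.85% higher and 6.8% lower over all genes. The lysosome count lay near those shares. The interferon clause of the rule counts raw UMIs in both groups, and members were the deeper in each library, so it was the stricter per UMI on members. The interferon counts against non-cycling phagocytes therefore draw on values that the rule used, here and in the other libraries, and are given as a description. Named by size alone, Ccl24, an eosinophil attractant, stood at 3.28 against 135 CPM and Saa3, an acute-phase protein, at 3.28 against 191 CPM.

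On day 7 the C1q level no longer set members apart. Of 11963 genes tested, 6.33% were at least 2-fold higher and 9.84% at least 2-fold lower, and the median was -0.03. Among cells above the limit the shares were 5.64% and 8.72%. Mature macrophage genes had 0 of 12 higher and 1 lower (median -0.09). Monocyte genes had 2 of 14 higher and 5 lower (median -0.53), and among members and non-cycling cells above the limit 0 higher and 6 lower (median -0.76). The 2 higher were Thbs1 and Vcan, matrix genes that fibroblasts also express: above the limit their log2 ratios were -1.45 and -0.91. Chil3 stood at 4.32 against 85.9 CPM (log2 -4.03), Ly6c2 at 28.1 against 126 CPM and Plac8 at 302 against 685 CPM.

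Some resident-like genes were lower in day 7 members, of which 46 of 90 were called to the state these genes mark. Of 9 genes tested 3 were at least 2-fold lower, beside 9.84% of all genes, and 0 higher (median -0.86, and -1.28 against the matched state mix). Ccl8 stood at 70.2 against 232 CPM (log2 -1.71, -2.08 to -1.36). Sepp1, a selenium carrier, stood at 555 against 1099 CPM (log2 -0.98), and Stab1 at 89.6 against 128 CPM (log2 -0.51, -0.84 to -0.19). Ccl8 and Stab1 were gate genes of the references and were not used to call the members. Spp1 stood at 3905 against 7835 CPM, and above the limit its log2 ratio was -0.17. Ccl17, a chemokine of dendritic cells, stood at 21.6 against 142 CPM. Class II, interferon, lysosome and respiratory chain genes had none past 2-fold of 7, 13, 12 and 12, with medians of -0.19, -0.45, -0.25 and 0.07.

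Of the 10 largest increases of day 7, Mmp3 rested on the members below the limit. Mmp3, a stromal protease, stood at 82.1 against 0.576 CPM (log2 5.72), and its log2 ratio above the limit was -0.48.

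After reversal the 18 members again had less of the monocyte genes. Of 8342 genes tested, 7.37% were at least 2-fold higher and 14% at least 2-fold lower (615 and 1172 genes). Scaling by trimmed means (TMM), which shifts the log2 ratios here by a median of -0.17, gave 408 and 1431. Among cells above the limit the shares were 8.54% and 12%. Monocyte genes had 0 of 14 higher and 11 lower (median -2.30). S100a6, a calcium-binding protein, stood at 121 against 653 CPM (log2 -2.42, -3.02 to -1.88), Plac8 at 85.1 against 467 CPM with 10 of its 19 UMIs in 1 cell, and Chil3 had 1 UMI in members. Mature macrophage genes had 0 of 12 past 2-fold either way (median -0.09).

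Some inflammatory chemokines were lower in reversed members. Of 11 inflammatory genes 4 were at least 2-fold lower and 0 higher. Ccl12, a monocyte attractant, stood at 40.3 against 362 CPM (log2 -3.14, -4.23 to -2.22), with UMIs in 2 of 18 members. Cxcl2 stood at 197 against 970 CPM and Ccl4 at 228 against 917 CPM. Of 7 class II genes 1 was at least 2-fold lower (median -0.83), a share close to the 14% of all genes, and Cd74 stood at 15251 against 27401 CPM (log2 -0.85, -0.90 to -0.80). Cd74 was detected in 18 of 18 members. Of 11 interferon genes 1 was higher and 5 lower, and of 12 lysosome genes 1 was higher and 0 lower. Both higher counts lay near the 7.37% of all genes, and the interferon counts again draw on the rule, with a median of 10756.5 UMIs in members against 5988.

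In these 18 cells a few values rest on 1 cell. Of 8 Mmp12-state genes 3 were at least 2-fold higher in members, beside 7.37% of all genes. Gpnmb, a lysosomal glycoprotein of lipid-loaded macrophages, stood at 184 against 44.3 CPM (log2 2.03), but 38 of its 41 UMIs lay in 1 cell, without which it stood at 14.8 CPM (log2 -1.52). Fabp5, a fatty acid carrier, stood at 954 against 234 CPM (log2 2.02), with 187 of 213 UMIs in 1 cell and -0.85 without it. Igf1, a growth factor, stood at 206 against 87.3 CPM (log2 1.23) with 25 of 46 UMIs in 1 cell and 0.24 without it. Mmp12 itself stood at 434 against 482 CPM (log2 -0.15), in 4 members, with 50 of its 97 UMIs in 1 cell, without which it stood at 232 CPM (log2 -1.05).

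**Figure D4:**
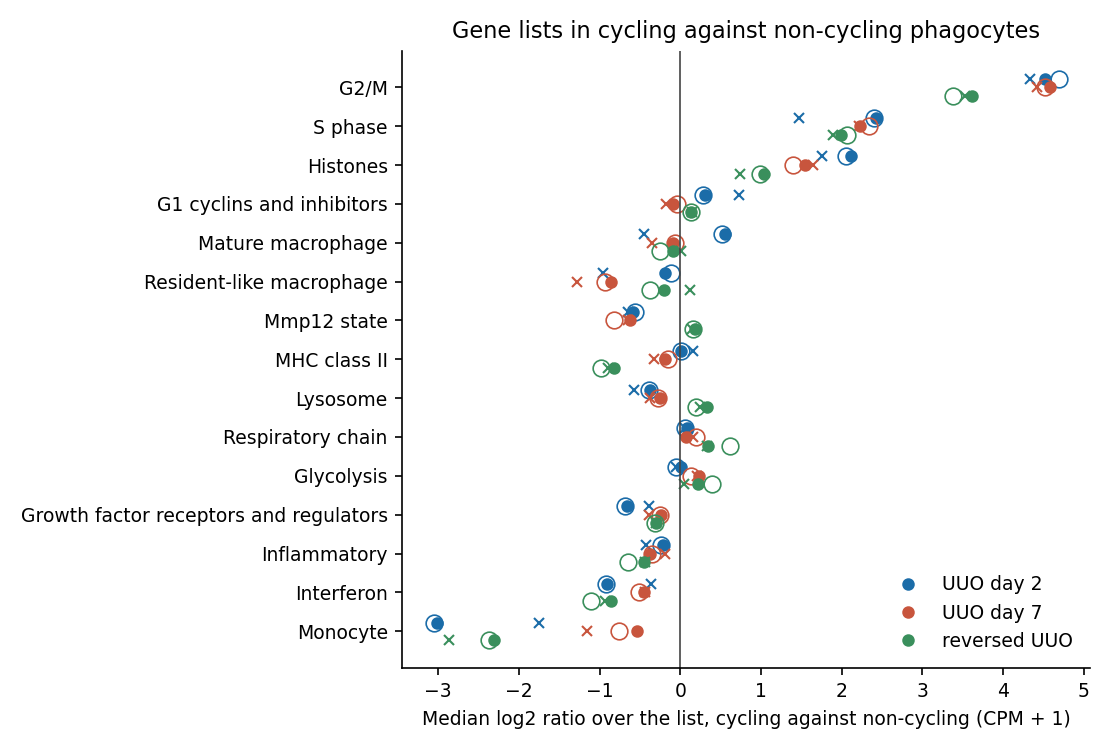
Median log2 ratio of CPM, members against non-cycling phagocytes of the same library (x axis), for the gene lists described (y axis) in the 3 libraries. Filled points are all members, open circles members and non-cycling cells at or above 12 Tyrobp plus Fcer1g UMIs per 10000, and crosses non-cycling cells weighted to the state mix of the members. The monocyte list lies at -3.02, -0.53 and -2.30.

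Regulators of entry into the cycle were counted apart from the phase lists. Of 15 G1 cyclins, kinases and inhibitors tested on day 2, 5 were at least 2-fold higher in members and 2 lower, beside 7.85% and 6.8% of all genes. Ccnd1, the D-type cyclin that answers growth signals, stood at 231 against 114 CPM (log2 1.01, 0.78 to 1.24), and its partners Cdk4 and Cdk6 at 226 against 92.6 and 151 against 57.9 CPM. Cdkn2c, an inhibitor of those kinases, stood at 95.8 against 7.82 CPM (log2 3.46, 2.87 to 4.06). Btg1 and Btg2, both linked to cell cycle arrest, stood at 296 against 713 and 138 against 345 CPM. On day 7, 4 of 18 were higher and 1 lower, beside 6.33% and 9.84% of all genes, with Cdk4 at 167 against 81.9 CPM, Cdkn2c at 92.9 against 15.3 CPM and Cdkn2d at 103 against 34.2 CPM. After reversal 3 of 15 were higher and 2 lower, beside 7.37% and 14%, so the lower count lay near the share over all genes. There Ccnd1 stood at 62.7 against 141 CPM (log2 -1.16, -2.02 to -0.40) from 14 UMIs, and Ccnd2 at 22.4 against 120 CPM.

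Growth factor receptors and regulators gave counts too small to set the list apart from all genes. None of 13, 15 and 14 genes tested was at least 2-fold higher, beside 7.85%, 6.33% and 7.37% of all genes, and 2, 1 and 3 were lower, beside 6.8%, 9.84% and 14%. Csf1r stood at 420 CPM (385 to 458) in day 2 members against 391 CPM (370 to 413), at 287 against 370 CPM on day 7 and at 313 against 443 CPM after reversal. The factor Klf4, which promotes monocyte differentiation, stood at 18.01 against 60.0 CPM on day 2 (log2 -1.68), and at -0.32 against the matched state mix. Il13ra1, a receptor chain for interleukin-13, stood at 32.8 against 81.0 CPM.

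Members were then compared between libraries, with the same ratio in non-cycling phagocytes beside it. The comparisons share members and are given side by side. Of 6966 genes tested between day 7 and day 2, 9.55% were at least 2-fold higher on day 7 and 2.68% lower (665 and 187 genes). TMM scaling, a median shift of -0.15, gave 496 and 315. Among members above the limit the shares were 6.44% and 3.86%. The largest increases by size were collagen genes that lay in the members below the limit: Col3a1 stood at 1070 CPM on day 7, with 991 UMIs, and at 2.46 CPM on day 2, with 3, and the day 7 members above the limit had 35.1 CPM. Ear2, a ribonuclease found in Ly6c2-low monocytes, differed in the members above the limit too: it stood at 178 CPM on day 7, in 25 of 90 members, and had no UMI on day 2, which allows 2.46 CPM. Non-cycling phagocytes had Ear2 on both days, at 105 and 54.7 CPM.

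Day 7 members carried more class II and Apoe transcripts than day 2 members. Of 7 class II genes 4 were at least 2-fold higher, beside 9.55% of all genes (median 1.38, and 1.26 in non-cycling phagocytes), and above the limit all 7 were (median 1.72). H2-Ab1, a chain of the class II molecule, stood at 7740 CPM on day 7 and 2972 CPM on day 2 (log2 1.38, 1.32 to 1.44), and non-cycling phagocytes differed by 1.58. H2-Eb1 stood at 6505 and 2074 CPM. Apoe had a log2 ratio of 2.43 (2.36 to 2.50), against 1.54 in non-cycling phagocytes, and Ms4a7, a macrophage membrane protein, stood at 366 and 102 CPM. Of 8 interferon genes 6 were higher (median 1.64, and 1.42 in non-cycling cells), but the rule removed cells with 5 or more UMIs over 5 such genes, among them Cxcl10 and Ifit3 of these 8. That clause counts raw UMIs, and day 2 members were the deeper, with a median of 17295 against 9339.5 UMIs, so it was the stricter per UMI on day 2. Its part in the interferon levels was not tested. Irf7, which drives interferon production, stood at 107 and 13.1 CPM (log2 2.94, 2.20 to 3.73), and Isg15 at 92.9 and 24.6 CPM.

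Plac8 and C1qb had unlike ratios in members and in non-cycling cells. Of 12 monocyte genes tested in members 4 were higher on day 7 and 2 lower, beside 9.55% and 2.68% of all genes (median 0.65, and -1.47 in non-cycling phagocytes). Plac8 stood at 302 CPM on day 7 and 59.8 CPM on day 2 in members, a log2 ratio of 2.32 (1.95 to 2.71), and at -0.86 in non-cycling phagocytes. C1qb had a ratio of -0.07 in members and 1.02 in non-cycling phagocytes. Chil3 was lower in both, at -4.42 and -3.62. The difference between the 2 ratios was not tested, as each group is 1 library.

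Some glycolysis genes were lower on day 7. Gapdh stood at 944 and 2052 CPM (log2 -1.12, -1.23 to -1.01), against -1.20 in non-cycling phagocytes, and Eno1 at 328 and 702 CPM. These 2 were among 3 of 12 glycolysis genes at least 2-fold lower, beside 2.68% of all genes. Hmox1, heme oxygenase, stood at 32.4 and 185 CPM, with 91 of the 226 day 2 UMIs in 1 cell. Cxcl2 stood at 228 and 819 CPM. The D cyclin partner Cdk6 stood at 50.8 and 151 CPM (log2 -1.55, -2.04 to -1.09), while non-cycling phagocytes had a ratio of 0.24.

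**Figure D5:**
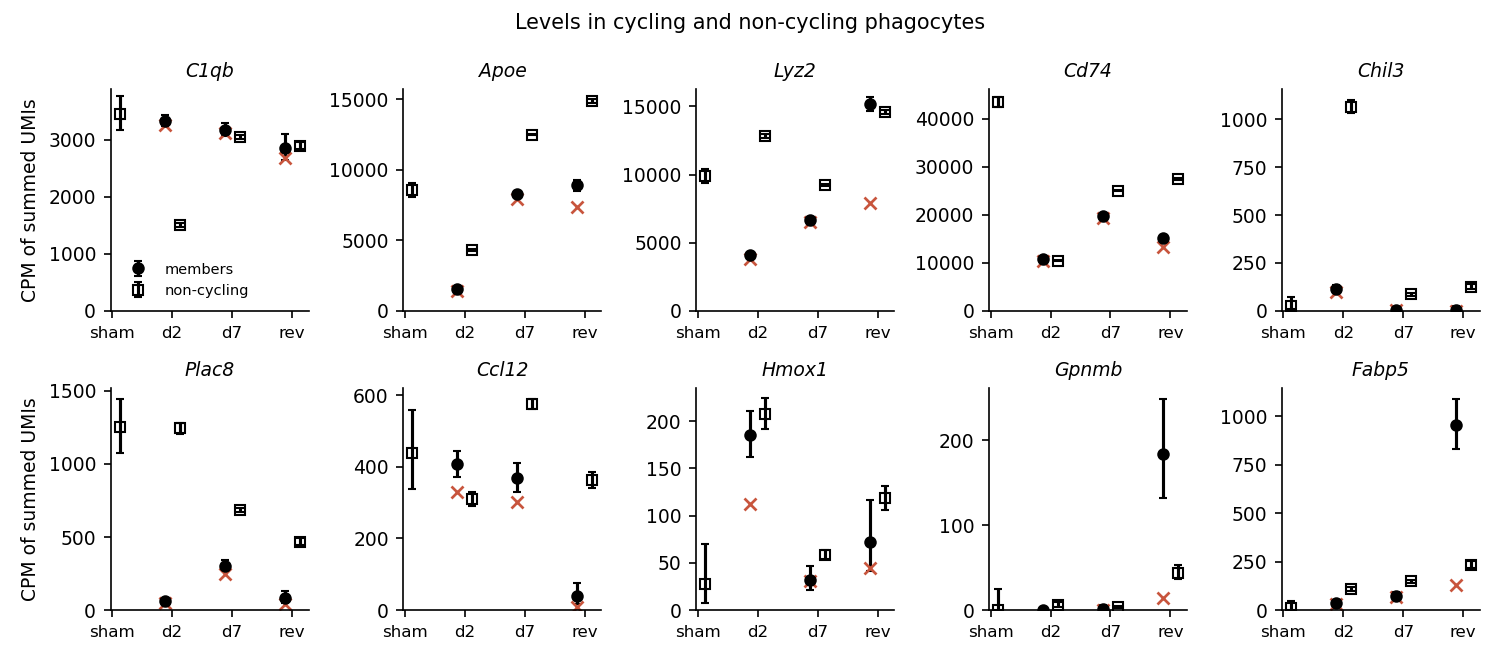
Level in CPM (y axes, linear scale) of 10 genes in the 4 libraries (x axes). Filled points are members, open squares non-cycling phagocytes, and red crosses members without the 1 cell that held the most UMIs of that gene. Bars are exact Poisson 95% intervals. C1qb of members stays between 2866 and 3339 CPM, and Fabp5 of reversed members stands at 954 CPM with that cell and 130 CPM without it.

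Reversed members were few, and their comparison with day 7 members rests on 223330 UMIs. Of 5151 genes tested, 4.33% were at least 2-fold higher after reversal and 10.8% lower, and 4.52% and 7.54% above the limit. Of 11 monocyte genes 1 was higher and 7 lower (median -1.43, and -0.17 in non-cycling cells). S100a6 stood at 121 and 1247 CPM (log2 -3.36, -3.96 to -2.81), at -2.30 above the limit. Ccl12 stood at 40.3 and 368 CPM (log2 -3.16), and 4 of 6 interferon genes were lower (median -1.13), in members that the rule had capped on raw UMIs of 5 such genes, so that this count draws on the rule as well.

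Of 7 Mmp12-state genes 4 were at least 2-fold higher after reversal, and 3 of 12 lysosome genes, beside 4.33% of all genes. Mmp12 had a log2 ratio of 2.20 (1.77 to 2.63), and 1.29 without the 1 cell that held 50 of its 97 UMIs. Non-cycling phagocytes had a ratio of 1.82. The log2 ratio of Gpnmb was 6.47 (4.63 to 7.52), with 1 UMI on day 7, and 2.92 without its 1 cell, and that of Fabp5 was 3.66, and 0.79 without its own. Ctsd, a lysosomal protease, stood at 1710 and 456 CPM (log2 1.91, and 1.27 without 1 cell), and Trem2, a lipid-sensing receptor, at 291 and 99.4 CPM (log2 1.54, and 0.96). Lyz2 stood at 15161 CPM after reversal with 1778 of 3386 UMIs in 1 cell, which takes its ratio from 1.18 to 0.24.

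Against day 2 members, some cycle genes outside the 3 of the rule were lower in reversed members. Of 5414 genes tested, 8.05% were at least 2-fold higher after reversal and 11% lower (436 and 597 genes). TMM scaling, a median shift of -0.20, gave 319 and 868. Among members above the limit the shares were 7.3% and 11.2%. Of 30 S phase genes 11 were lower and 0 higher (median -0.82, and -0.63 in non-cycling phagocytes), with Mcm6 at 85.1 and 165 CPM (log2 -0.95, -1.70 to -0.28). Of 42 G2/M genes 9 were lower and 0 higher (median -0.55, and -0.24 in non-cycling phagocytes). The rule genes Top2a, Mki67 and Birc5 had ratios of 0.12, 0.77 and -0.53. Apoe had a ratio of 2.53 (2.44 to 2.62), against 1.80 in non-cycling phagocytes, and C1qb one of -0.22, against 0.94. Of 7 Mmp12-state genes 5 were higher (median 1.95, and 1.11 in non-cycling cells), with the single cells named above among them.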

How the data were processed

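The authors deposited 1 matrix of whole UMI counts per gene and cell for each of the 4 droplet libraries (28692 gene identifiers, 16876 cells), made with the 10x 3′ V2 kit per the labels' protocols. Cell Ranger, STAR, GRCm38 and mm10 are named, without roles or versions, in the submitters' processing notes. The plate-based Smart-seq2 sample was not used here, as the rule names the droplet matrices. A reference state and its genes are not reported here. Members, gene lists and states were chosen with earlier results of these data known. The median UMIs per cell and library totals stand in the report.

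Counts were summed over cells of a group and scaled to CPM. A log2 ratio used a pseudocount of 1 CPM and an exact conditional binomial 95% interval, shares used exact Clopper-Pearson and levels exact Poisson intervals. UMIs remove amplification copies but intervals cover counting error only. Genes with at least 30 summed UMIs were tested for a ratio of 2. The text named genes from fixed lists (the 4 of highest level and the extreme ratio each way) and, of each comparison, from the 10 largest ratios each way at 50 CPM or more; further list genes named in the text, such as Cd81, Ccr2, Klf4, Sepp1 and Cdkn2c, were chosen after their values were seen. Of the list genes, 1 was not in the files. Doublets were kept, and in an alternative the highest Scrublet scores were removed at 0.8% per 1000 cells (282, 60, 162 and 109 cells). Non-cycling references had to hold 20 cells, and genes 20 CPM in a state. Steps ran in Python 3.11.15 with numpy 2.4.6, scipy 1.17.1, pandas 2.3.3, scanpy 1.11.5 and matplotlib 3.10.9. TMM factors came from edgeR 4.0.16 in R 4.3.3. The ratio and state steps were tested on simulated data.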

Additional observations from a re-analysis of the deposited data

Results flagged for a closer look

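The ratio of members to non-cycling phagocytes of 4 genes lay past 2-fold in opposite directions in different libraries, and with 1 library per group none of these differences was tested. Ccnd1 had a log2 ratio of 1.01 on day 2, from 282 UMIs in members, and -1.16 after reversal, from 14 UMIs; among cells at or above 12 Tyrobp plus Fcer1g UMIs per 10000 the values were 1.06 and -1.03. Fabp5 had 2.02 after reversal and -1.52 on day 2, and 187 of the 213 UMIs of the reversed members lay in 1 cell, without which the ratio was -0.85. Thbs1 had 1.09 on day 7 against -4.64 on day 2 and -1.67 after reversal, and above the limit its day 7 ratio was -1.45. Vcan had 1.12 on day 7 and -2.81 on day 2, and above the limit its day 7 ratio was -0.91. For Thbs1 and Vcan the sign on day 7 thus turned with the members below the limit, and without the 1 cell of most UMIs their day 7 ratios were 0.06 and 0.43.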

How the results depend on the processing

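Of 278 recomputed shares 238 moved by less than their counting interval, as did 5337 of 6159 recomputed single-gene ratios. A further 15 ratios, at least 2-fold either way in the main setting, turned sign. Sign turns of smaller ratios were not counted. Leaving out cells with 3 or more UMIs of other types' markers gave member shares of 6.45% on day 2 (2 of 31 cells), 3.31% on day 7 (13 of 393) and 0 of 10 after reversal. A limit of 2 UMIs gave 6.97% on day 7, and thinning with a limit of 1 UMI gave 10.4% on day 7 and 6.97% after reversal.

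References of all 4 libraries gave, on day 2, 47.8% nearest either C1q-high state, 56.5% with Mmp12-positive added and 42.0% nearest the Ccl8 or Stab1 state, and on day 7 62.2% nearest either C1q-high state and 36.7% the Ccl8 or Stab1 state. References of other cell types, added after seeing the data, gave 79.7% for both combined day 2 shares, and Pearson correlation gave 89.9% nearest the Ccl8 or Stab1 state on day 2. The limit of 12 per 10000, also added after seeing the data, gave on day 7 72.2% for either C1q-high state, 93.1% with Mmp12-positive added and 22.2% for the Ccl8 or Stab1 state. After reversal it gave 100% for C1q-high or Mmp12-positive, and doublet removal gave 94.1%. The cause of these shifts was not tested.

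Counts of genes past 2-fold moved with the processing, and the cause of these moves was not tested. With a pseudocount of 10 CPM the higher and lower counts against non-cycling phagocytes were 406 and 242 on day 2, 420 and 192 on day 7, and 303 and 552 after reversal. With every gene of 1 UMI or more they were 1296 and 1438 on day 2, 1250 higher on day 7, and 1859 and 3769 after reversal. Weighting to the state mix gave 369 lower on day 2 and 769 on day 7, and TMM 408 higher after reversal. Between day 7 and day 2 the counts were 382 and 76 at 10 CPM, 3535 and 763 without a filter, 389 higher above the limit and 315 lower by TMM. Between reversal and day 7 they were 368 lower at 10 CPM, 1762 and 4340 without a filter and 295 lower above the limit. Between reversal and day 2 they were 347 lower at 10 CPM, and 2822 and 2446 without a filter.

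Weighting to the state mix turned C1qa to -0.35, C1qb to -0.22, C1qc to -0.17, Gzma to 0.59 and Spp1 to 0.18 on day 2, Fscn1 to 0.11 on day 7, and S100a9 to 0.22 and Thbs1 to 0.11 after reversal. The Spp1 value includes the 1 cell below the limit that held 1460 of its 4956 UMIs in day 2 members. Above the limit, day 7 Col3a1 turned to -1.24, Il34 to 0.15, Mmp3 to -0.48, Thbs1 to -1.45 and Vcan to -0.91 against non-cycling cells, day 7 Mmp3 to -0.91 against day 2 members, and reversed Thbs1 to 0.60 against day 7 members. No paired analysis was possible because each group is 1 library. The number of cells limits the sham group, where 0 of 49 allows 6.12% by the rule of 3 counts, with an exact 95% upper bound of 7.25%, and the reversed group, whose 18 members leave single cells able to set a gene's value.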
